A study of Mus musculus with 5 samples.

Results

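The 6 genes described here are the receptors that bind the constant part of immunoglobulin G (IgG) in the mouse, Fcgr1, Fcgr2b, Fcgr3 and Fcgr4, together with Fcer1g, the signalling chain that the activating receptors need, and Fcgrt, the heavy chain of the neonatal Fc receptor. They were chosen by symbol, and each symbol named 1 of the 31053 genes measured. The data are single-cell transcriptomes of 15 mammary tumors from MMTV-PyMT mice, a transgenic line whose mammary epithelium expresses the oncogene polyoma middle T under a viral (mouse mammary tumor virus) promoter, so that tumors arise on their own. Mice received 5 mg/kg of the VEGF-A-blocking antibody B20-4.1.1 or of an isotype IgG2a, from 7 weeks of age and for 6 weeks. Both treatments were therefore antibodies, and no tumor came from a mouse given none. The 6 isotype tumors (I1 to I6) were run in 2 pools and the 9 B20-4.1.1 tumors (B1 to B9) in 3 pools, with 3 tumors in each pool and 1 treatment per pool, so that pool and treatment cannot be told apart. Viable cells had been sorted without any marker of cell type.

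Fc gamma receptors let leukocytes sense antibody bound to a target. Fcgr1, Fcgr3 and Fcgr4 are activating: their ligand-binding chains assemble with the Fcer1g product, whose ITAM motif recruits the kinase Syk and starts phagocytosis, killing and cytokine release. Fcgr2b carries an ITIM motif that recruits the phosphatase encoded by Inpp5d and restrains those responses, and it is also the Fc gamma receptor of B cells. The neonatal receptor pairs with beta 2 microglobulin inside endothelial cells and macrophages and returns IgG to the circulation. In tumors, macrophages are the best known carriers of these receptors, and the balance of activating and inhibitory receptors sets how they answer to a therapeutic antibody.

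In GRCm38 (GENCODE vM21 gene models) 4 members lie on chromosome 1: Fcgr2b at chr1:170958617-170976547, Fcgr4 at chr1:171018920-171029761, Fcgr3 at chr1:171051174-171064935 and Fcer1g at chr1:171229572-171234365. Fcgr1 lies at chr3:96282909-96293969 and Fcgrt at chr7:45092990-45103851. All are on the minus strand except Fcgr4. The receptors are related in sequence, so the last 500 bases of each principal transcript, where 3' libraries read, were compared with all annotated transcripts, and 0 of the 451 windows of 50 bases occurred in another gene for any member. Genes antisense to Fcgr2b (Gm38204) and Fcgrt (Gm45669) are annotated inside them.

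3 of the 6 promoters held a short motif of a myeloid or interferon-responsive factor in the 250 bases before the RefSeq start (GRCm38.p6). The last 120 bases before the start of these 3 are shown because they held a match. Capitals mark matches to GAGGAA, the core bound by the myeloid factor PU.1 (here on the opposite strand, as TTCCTC), to TTCNNNGAA, the gamma-activated site, and to the interferon-stimulated response element. The windows are chr3:96293970-96294089 (minus strand) for Fcgr1, chr1:171059404-171059523 (minus strand) for Fcgr3 and chr1:171018806-171018925 (plus strand) for Fcgr4.
Fcgr1: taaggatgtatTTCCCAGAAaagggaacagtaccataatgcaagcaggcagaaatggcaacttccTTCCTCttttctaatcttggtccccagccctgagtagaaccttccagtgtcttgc
Fcgr3: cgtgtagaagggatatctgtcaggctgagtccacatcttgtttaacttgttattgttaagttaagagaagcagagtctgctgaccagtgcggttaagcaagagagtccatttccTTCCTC
Fcgr4: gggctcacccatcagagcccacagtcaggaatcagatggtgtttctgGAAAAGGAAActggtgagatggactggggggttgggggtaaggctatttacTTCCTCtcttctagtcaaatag
On both strands of 250 bases, the PU.1 core was found in 23.1% of 27025 promoters, the gamma-activated site in 7.18% and the interferon-stimulated response element in 3.04%. The listed starts of Fcgr3 and Fcgr2b lie 5532 and 476 bases inside their GENCODE genes, so the 250 bases searched lie inside these genes too. The windows of Fcgr2b, Fcer1g and Fcgrt held none of these letters, and no member held the E-box CACGTG, which was found in 6.05% of promoters.

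Depth ranged from 4014509 to 23726246 UMIs per tumor, and 19533 of 30340 deposited cells were kept. No member was used to class the cells. By marker counts 1389 cells were macrophage-like, 217 monocyte-like, 108 neutrophil-like, 66 dendritic-like, 197 NK-like, 295 T-like with NK markers, 2384 T-like, 180 B-like, 54 fibroblast-like, 18 endothelial-like and 13021 epithelial-like. The genes leading the macrophage-like class were C1qa, Apoe, C1qc and C1qb. Isotype pool 1 stood apart in depth (median 2192 to 2423 UMIs per deposited cell, against 6034 to 6582 in isotype pool 2) and held the 3 tumors with 20 or more neutrophil-like cells. In B3, B4 and B6 over 50% of kept cells were T-like, against 2.45% to 16.8% in the other tumors. Within a pool 0 cell barcodes were shared between tumors, and 94 were shared between tumors of different pools.

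The 4 Fc gamma receptors were found mostly in a few classes of cell. Macrophage-like cells held 79.5% of all Fcgr1 UMIs, 71.4% of Fcgr2b, 73.1% of Fcgr3 and 83.4% of Fcgr4, although they were 7.11% of the cells. Monocyte-like cells held a further 9.92%, 14.8%, 10.3% and 3.74%. Fcer1g was shared more widely: 47.4% of its UMIs were in macrophage-like cells and 15.6%, 7.27% and 4.55% in T-like cells, T-like cells with NK markers and NK-like cells. Fcgrt was the exception, with 52.6% of its UMIs in epithelial-like cells, which made up 66.7% of cells and 77.1% of all UMIs, and 23.0% in macrophage-like cells.

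**Figure D1:**
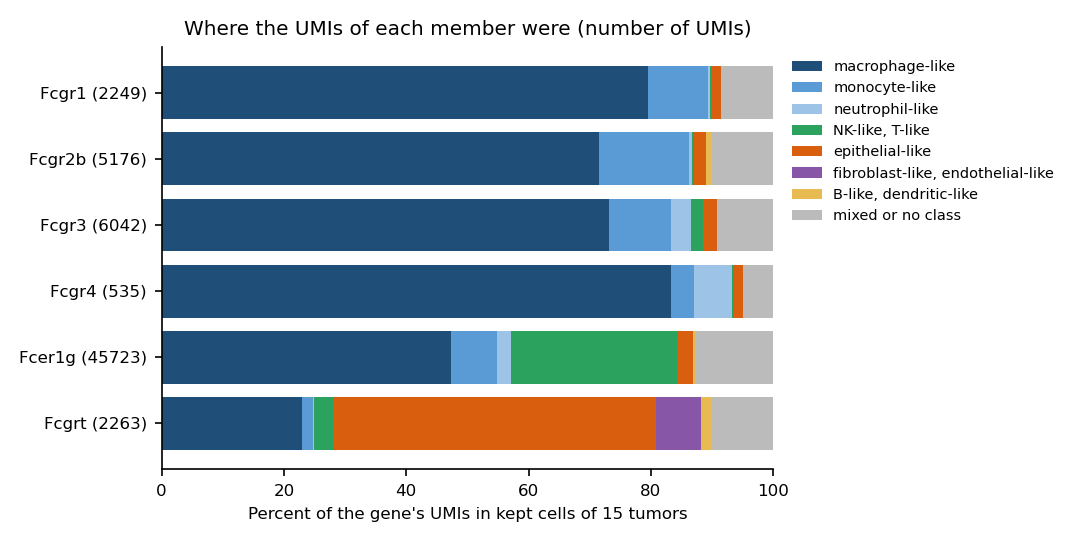
Percent of each member's UMIs (x axis) found in each group of cell classes, over the kept cells of 15 tumors; the number of UMIs stands beside each gene. Macrophage-like cells hold between 71.4% and 83.4% of the UMIs of the 4 Fc gamma receptors, 47.4% of Fcer1g and 23.0% of Fcgrt.

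Fcgr1, the high-affinity receptor, was at 1.79 UMIs per 10000 in macrophage-like cells (pooled over tumors; exact 95% Poisson interval 1.71 to 1.88) and at 1.48 in monocyte-like cells (1.29 to 1.69). These pooled intervals cover counting error only. Neutrophil-like cells followed at 0.139 (6 UMIs), and the T-like and epithelial-like levels were 0.00462 and 0.00259. Over the 13 tumors with at least 20 macrophage-like cells the level was 1.72 ± 0.614 (SD), from 0.906 in I4 to 3.449 in B9. Monocyte-like cells reached 20 cells in only 4 tumors, and their Fcgr1 level was 0.28 in I4, 0.62 in I5, 1.30 in I2 and 4.11 in B9. B9 thus had the most Fcgr1 per UMI in both classes and I4 the least.

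Fcgr3, the activating receptor that is also carried by NK cells, was at nearly one level in the 3 phagocyte classes, with 4.43 UMIs per 10000 in macrophage-like (4.30 to 4.57), 4.12 in monocyte-like (3.81 to 4.46) and 4.45 in neutrophil-like cells (3.85 to 5.13). NK-like cells held 33 Fcgr3 UMIs, a level of 0.317 (0.218 to 0.445), and T-like cells 64, a level of 0.0591 (0.0455 to 0.0754). By tumor, the NK-like level was 0.0867 to 0.664 in the 4 tumors with 20 or more such cells (median 0.119). The T-like level was 0 to 0.284 over 15 tumors (median 0.0676), so the ranges overlapped. Free RNA from lysed cells gives UMIs in cells that do not express a gene, and epithelial-like cells, which should lack Fcgr3, were at 0.0109. With every cell thinned to 2500 UMIs, 8.12% of NK-like cells had a Fcgr3 UMI (exact 95% interval 4.71% to 12.9%), against 1.30% of T-like and 0.323% of epithelial-like cells. Unthinned, these shares were 11.7%, 2.27% and 1.03%, at median depths of 4837, 3937.5 and 9048 UMIs. NK-like cells held only 4 Fcgr2b UMIs, whereas in macrophage-like cells Fcgr3 and Fcgr2b had 4417 and 3698 UMIs.

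Fcgr4, the activating receptor for IgG2 subclasses on myeloid cells, was the scarcest of the 4 in UMIs, with 535 in all kept cells. Its level was 0.765 UMIs per 10000 in neutrophil-like cells (33 UMIs, 0.527 to 1.07), 0.448 in macrophage-like (0.407 to 0.491) and 0.133 in monocyte-like cells (20 UMIs, 0.0813 to 0.205). The neutrophil-like level came mainly from isotype pool 1, where it was 0.589, 0.867 and 0.957 in the 3 tumors. NK-like cells had 0 Fcgr4 UMIs, which allows a level of up to 0.0288 per 10000 by the limit of 3 UMIs (exact 95% upper bound 0.0355).

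Fcgr2b, the inhibitory receptor, was at 5.10 UMIs per 10000 in monocyte-like (4.74 to 5.47) and 3.71 in macrophage-like cells (3.59 to 3.83). B-like cells were next, at 0.718 (46 UMIs, 0.526 to 0.958), and neutrophil-like cells were at 0.533. Of B-like cells 17.8% had a Fcgr2b UMI after thinning (23.9% unthinned, median depth 3271.5 UMIs), against 0.503% of T-like cells (0.629% unthinned). Only B3, B4 and B6 had 20 or more B-like cells, whose Fcgr2b level was 0.683 in B3, 0.665 in B4 and 0.838 in B6. B-like cells had 0 UMIs of Fcgr1 and of Fcgr4, which allows up to 0.0468 per 10000 for each by the limit of 3 UMIs (exact 95% upper bound 0.0576).

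Fcer1g, the common signalling chain, was highest in 5 classes when pooled over tumors. Neutrophil-like cells were at 23.5 UMIs per 10000, monocyte-like at 22.7 and macrophage-like at 21.7. NK-like cells were at 19.99 and T-like cells with NK markers at 17.3. Tumors varied, with macrophage-like levels from 14.8 to 29.7. In isotype pool 1, neutrophil-like cells were at 19.9 to 26.7 and macrophage-like cells at 14.8 to 15.9. T-like cells were at 6.56 and dendritic-like cells at 3.10, and B-like (0.2498), endothelial-like (0.101), epithelial-like (0.0873) and fibroblast-like cells (0.0192) were far below. By tumor the T-like level was 0.488 to 22.7 (median 10.7 over 15 tumors), lowest in B3, B4 and B6, which held most T-like cells. After thinning, 96.5% of macrophage-like, 97.5% of NK-like and 26.01% of T-like cells had a Fcer1g UMI, against 2.57% of epithelial-like cells.

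Fcgrt, the IgG-salvage receptor, had its highest levels outside the leukocytes. It was at 2.73 UMIs per 10000 in endothelial-like cells (27 UMIs in 18 cells, 1.80 to 3.98) and 2.72 in fibroblast-like cells (142 UMIs in 54 cells, 2.29 to 3.21). Dendritic-like cells were at 0.639 (0.447 to 0.884), macrophage-like at 0.522 (0.478 to 0.569) and monocyte-like at 0.273 (0.196 to 0.370). Epithelial-like cells were at 0.0906 and T-like cells at 0.0665, while NK-like cells had 1 UMI. The only tumor with 20 fibroblast-like cells, B1, had a level of 3.26 in them, so no spread over tumors can be given for this class, nor for endothelial-like cells.

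**Figure D2:**
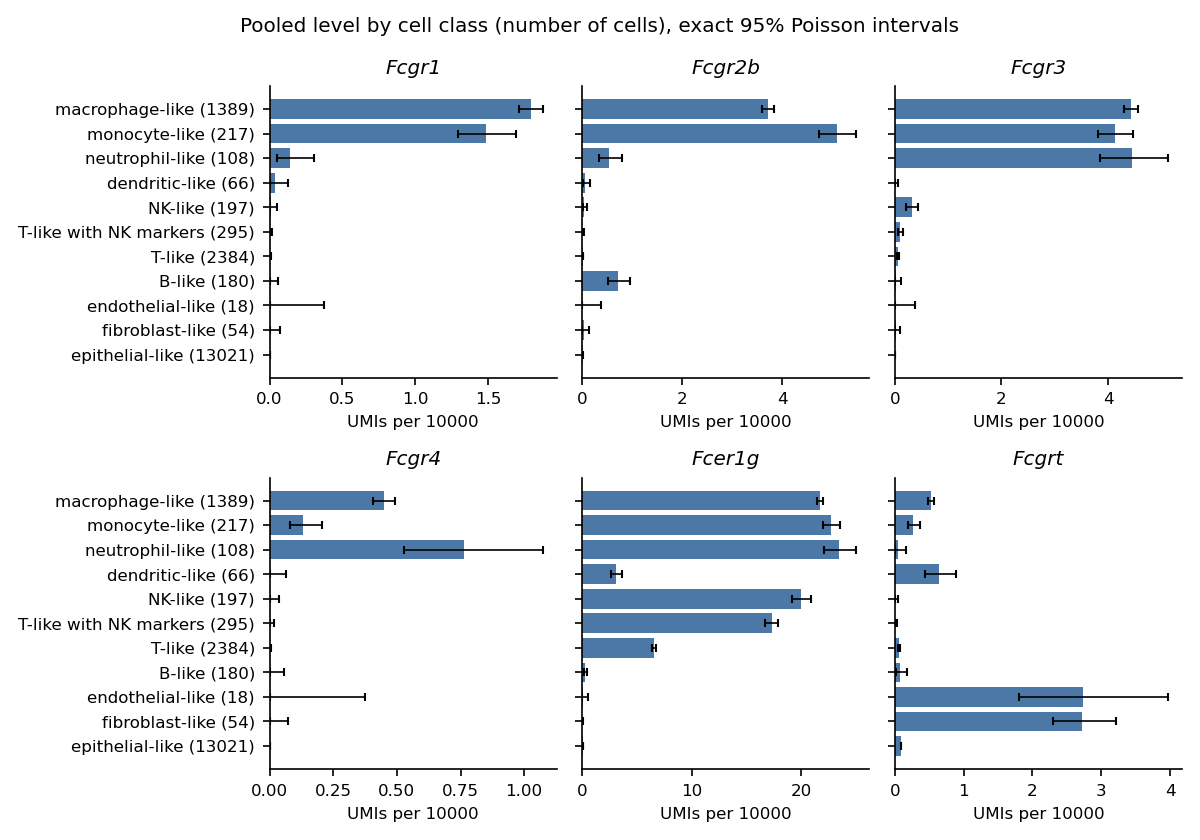
UMIs per 10000 (x axis) of each member in 11 cell classes, pooled over 15 tumors; bars are levels, error bars exact 95% Poisson intervals, and the number of cells is in parentheses. Fcgr1, Fcgr2b, Fcgr3 and Fcgr4 are higher than in the other classes in macrophage-like, monocyte-like and in part neutrophil-like cells, Fcer1g also in NK-like and T-like cells, and Fcgrt reaches 2.73 and 2.72 in endothelial-like and fibroblast-like cells.

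Between classes of the same tumors the members were tested with edgeR, the tumor as a block, over all genes. Against epithelial-like cells of 13 tumors all 6 members were higher in macrophage-like cells, where 34.1% of the 9507 genes tested were called higher and 77.9% were called in either direction. The log2 differences were 9.22 (SE 0.185) for Fcgr1, 8.97 (SE 0.257) for Fcgr4, 8.90 (SE 0.203) for Fcgr2b, 8.63 (SE 0.141) for Fcgr3 and 8.10 (SE 0.205) for Fcer1g, but only 2.53 (SE 0.168) for Fcgrt, with adjusted p-values of at most 1.73e-12.

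Against monocyte-like cells, in the 4 tumors with enough of both, Fcgrt was the 1 member of 5 tested that passed, where 11.8% of 4557 genes did. It was 1.18 higher on the log2 scale in macrophage-like cells (SE 0.340, edgeR adjusted p = 0.0402). Fcgr2b was at -0.52 (95% interval -1.02 to -0.02, adjusted p = 0.198) and Fcgr1 at 0.57 (-0.04 to 1.18, adjusted p = 0.246), and without B9, whose monocyte-like cells had the most Fcgr1, Fcgr1 was called (1.04, adjusted p = 0.0113, 13.4% of genes called). Fcgr3 was at -0.02 (-0.43 to 0.39) and Fcer1g at 0.00 (-0.35 to 0.35). Fcgr4 was too scarce for this test; without the filter on low counts it was 1.93 higher in macrophage-like cells (adjusted p = 0.00214, 6.44% of genes called). When Leiden clusters, found without the members, took the place of the marker counts, 8 tumors had enough of both classes. Fcgrt then turned to -1.28 (adjusted p = 0.000422), and Fcer1g, Fcgr1 and Fcgr4 were called higher in macrophage-like cells, where 26.0% of genes were called. The cluster named monocyte-like held 329 cells, of which 126 were monocyte-like by marker counts, 82 of no class, 69 macrophage-like and 30 dendritic-like.

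Receptors were seen in only part of the macrophage-like cells, and the shares depended on depth. A receptor not seen in a cell may still be expressed there, and how far the cells themselves differed was not tested. With 2500 UMIs in each cell, Fcgr3 was detected in 62.2% of the 1389 cells, Fcgr2b in 49.5%, Fcgr1 in 34.2%, Fcgr4 in 11.7% and Fcgrt in 10.9%. Unthinned, at a median of 6319 UMIs, these shares were 85.1%, 73.5%, 57.7%, 22.0% and 23.8%. Of the 4 Fc gamma receptors, 14.5% of thinned cells showed none, 32.1% showed 1, 36.4% showed 2, 15.4% showed 3 and 1.66% showed all 4. T-like cells showed none in 98.0% of cells and epithelial-like cells in 99.4%. Fcgr3 and Fcgr2b, an activating and the inhibitory receptor, were both seen in 33.98% of macrophage-like cells after thinning. Whether this exceeds what their separate shares (62.2% and 49.5%) would give was not tested.

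The comparison of treatments asked whether macrophages of tumors under VEGF-A blockade differ in their Fc receptors. Among 7 B20-4.1.1 and 6 isotype tumors with at least 20 macrophage-like cells (B3 and B4 had 14 and 17), the level of every member had a log2 fold change above 0, and 0 of 6 members passed edgeR's quasi-likelihood test after Benjamini-Hochberg adjustment. Of 6861 genes tested, 6 passed (0.0875%), and 730 had an unadjusted p under 0.05, among them 3 members, Fcgr2b, Fcgr4 and Fcer1g. The median log2 fold change was 0.38 over the members and 0.01 over all genes tested. DESeq2 called 31 genes (0.452%) and 1 member, Fcgr2b. The p-values measure the spread between tumors, treated as independent although tumors shared pools, and not the spread between pools. With voom and pool as a random block (pool correlation 0.255) 0 genes were called, as with sums per pool.

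Fcgr2b, the inhibitory receptor, was at 2.85 to 3.88 UMIs per 10000 in isotype tumors (median 3.04) and at 3.53 to 6.15 in B20-4.1.1 tumors (median 4.20). The isotype mean was exceeded in all 7 B20-4.1.1 tumors and the highest isotype tumor in 5 of them, with B6 (6.15) and B1 (5.39) the highest and I4 the lowest. Its log2 fold change was 0.57 (SE 0.143, 95% interval 0.27 to 0.86, edgeR adjusted p = 0.151), from means of 3.23 ± 0.409 and 4.57 ± 0.988. Over the 17 alternatives it stayed between 0.49 and 0.78 with adjusted p-values from 0.0268 to 1.00, and it was called in 3 of them: with DESeq2 (adjusted p = 0.0284), with Leiden clusters (0.78, adjusted p = 0.0268, 0.612% of genes called) and without isotype pool 2 (0.61, adjusted p = 0.0358, 8.52% of genes called). With Leiden clusters 9 B20-4.1.1 tumors had enough cells.

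The share of macrophage-like cells with a Fcgr2b UMI was 59.1% to 72.8% in isotype and 75.5% to 90.7% in B20-4.1.1 tumors, which did not overlap. Shares that did not overlap were seen for 0.262% of the genes tested. After thinning to 2500 UMIs the ranges were 35.1% to 53.7% and 45.3% to 71.4% and did overlap, with means of 44.8% ± 7.53 (SD, n = 6) and 57.1% ± 11.1 (n = 7). The median depth of macrophage-like cells was 5703 to 6648 UMIs in isotype tumors and 5005 to 9331 in the B20-4.1.1 tumors, with B6 the deepest.

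Fcgr4 was at 0.270 to 0.410 UMIs per 10000 in isotype tumors (median 0.361) and at 0.194 to 0.829 in B20-4.1.1 tumors (median 0.670). Of the B20-4.1.1 tumors, 6 lay above the highest isotype tumor and 1, B7, below the lowest, so the groups overlapped. The log2 fold change was 0.84 (SE 0.224, 95% interval 0.38 to 1.31, edgeR adjusted p = 0.185). It lay between 0.65 and 1.102 over the alternatives and was called only without B20-4.1.1 pool 3, which holds B7 (1.102, adjusted p = 0.0252, 0.191% of genes called). Thinned cells with a Fcgr4 UMI made up 9.40% ± 2.15 (isotype, SD, n = 6) and 16.4% ± 5.52 (B20-4.1.1, n = 7) of the macrophage-like class, with B7 at 6.67%.

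Fcer1g, the shared signalling chain, split the isotype tumors by pool. It was at 14.8, 15.4 and 15.9 UMIs per 10000 in the tumors of isotype pool 1 and at 25.2, 25.2 and 29.3 in those of isotype pool 2, while the B20-4.1.1 tumors lay between 20.8 and 29.7 (median 25.9). The log2 fold change was 0.38 (SE 0.179, 95% interval 0.01 to 0.76, edgeR adjusted p = 0.449). Without isotype pool 2 it was 0.89 (adjusted p = 0.00422, 8.52% of genes called). Without isotype pool 1 it was 0.01 (adjusted p = 1.00, where 0 of 6381 genes were called). Isotype pool 1 was also the pool of lowest depth per deposited cell. Macrophage-like cells of its 3 tumors had median depths of 6648, 6319 and 5703 UMIs, against 6021, 5910 and 6111 in isotype pool 2, and their part in the difference was not tested.

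Fcgrt depended on the same choice. Its level was 0.385, 0.373 and 0.394 in isotype pool 1, 1.099, 0.702 and 0.364 in isotype pool 2, and 0.368 to 0.802 in B20-4.1.1 tumors (median 0.518). The log2 fold change was 0.29 (SE 0.265, edgeR adjusted p = 0.720) with all tumors. It was 0.75 (adjusted p = 0.0320, 8.52% of genes called) without isotype pool 2 and -0.19 (adjusted p = 0.979) without isotype pool 1.

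The other activating receptors overlapped widely between treatments. Fcgr1 was at 0.906 to 1.91 in isotype (median 1.56) and 1.18 to 3.449 in B20-4.1.1 tumors (median 1.61), and its log2 fold change of 0.37 (SE 0.209, adjusted p = 0.538) was 0.22 without B20-4.1.1 pool 3, which holds B9, the tumor with the highest level. Fcgr3 was at 3.59 to 4.71 (median 4.34) and 3.78 to 6.24 (median 4.53), with a log2 fold change of 0.21 (SE 0.124, 95% interval -0.05 to 0.47, adjusted p = 0.564). Neither was called under any alternative.

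**Figure D3:**
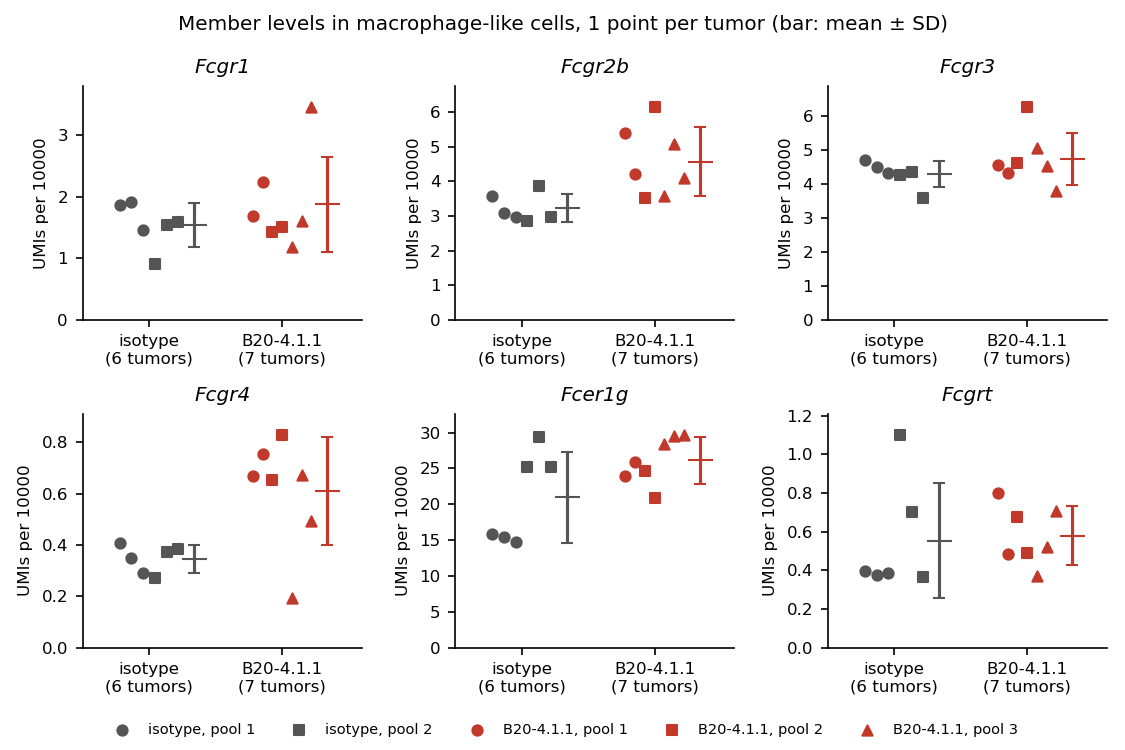
UMIs per 10000 (y axis) of the 6 members in macrophage-like cells, 1 point per tumor, with mean ± SD beside each group; symbols mark the pools. Of the 7 B20-4.1.1 tumors, 6 lie above all isotype tumors for Fcgr4, the groups overlap for every member, and isotype pools 1 and 2 are apart for Fcer1g (14.8 to 15.9 against 25.2 to 29.3).

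**Figure D4:**
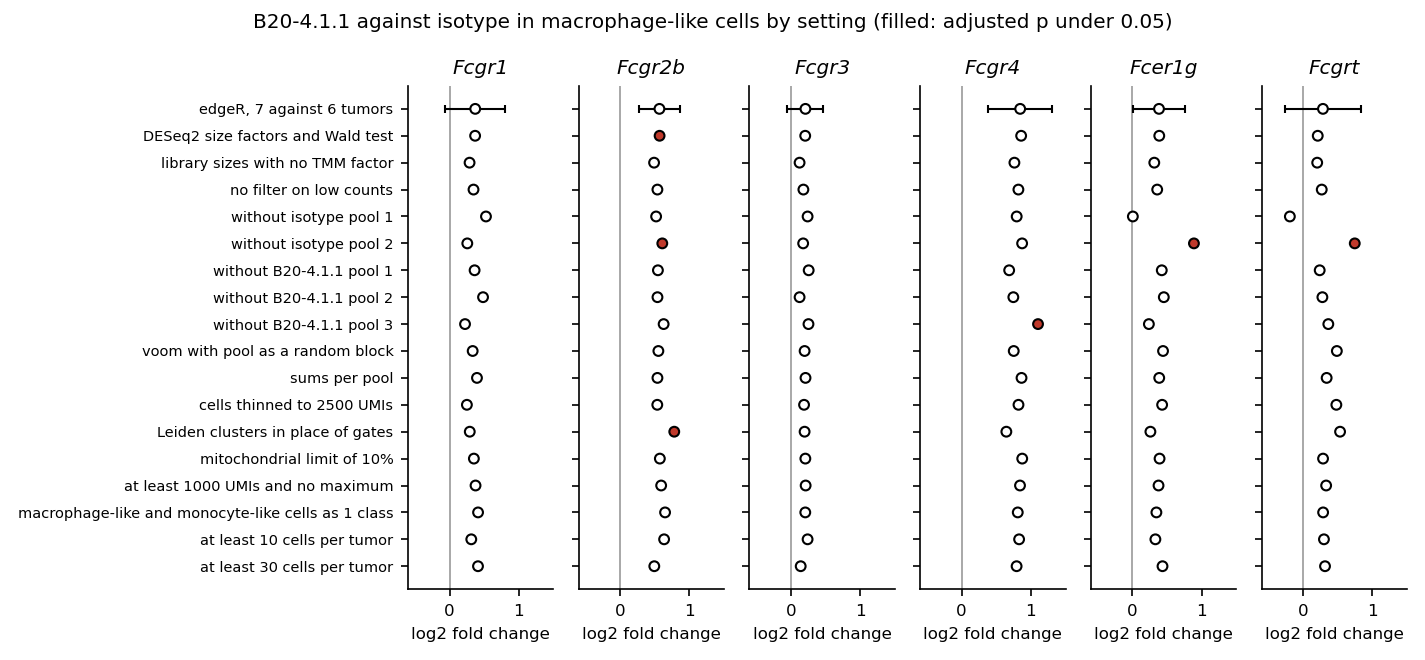
Log2 fold change of B20-4.1.1 against isotype (x axis) for each member in macrophage-like cells, with the 95% interval of the edgeR fit in the top line and 17 alternatives below; filled points have an adjusted p under 0.05. Fcgr2b and Fcgr4 lie between 0.49 and 1.102 in every line, and Fcer1g and Fcgrt move with the isotype pool that is left out.

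Markers of other cells were low in the macrophage-like sums, and several lists differed in median between treatments, which was not tested. The 8 epithelial markers together made up 1.40 to 3.09 UMIs per 10000 in isotype and 1.05 to 1.92 in B20-4.1.1 tumors, and the 8 neutrophil markers 0.327 to 1.68 and 0.298 to 0.777. The summed monocyte markers were at 2.07 to 7.30 and 1.19 to 5.83. The summed macrophage markers were at 122 to 149 and 132 to 181, so they were higher in B20-4.1.1 tumors in median (140 and 163). The lymphocyte lists were lower still but higher in B20-4.1.1 tumors. The B-cell markers were at 0 to 0.0701 and 0.0776 to 0.306, which did not overlap, the T-cell markers at 0.0541 to 0.174 (median 0.122) and 0.0936 to 0.425 (median 0.293), and the NK markers at 0.0464 to 0.114 (median 0.0740) and 0.0518 to 0.281 (median 0.207). The endothelial markers were at 0.0234 to 0.172 (median 0.0830) and 0.0488 to 0.241 (median 0.160). For Fcgr2b, B-like cells themselves were at 0.718 UMIs per 10000, below every macrophage-like level. The part of these levels in the members' differences was not tested.

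The activating receptors were set against the inhibitory one as a ratio of UMIs in each tumor's macrophage-like cells. The sum of Fcgr1, Fcgr3 and Fcgr4 was 1.93 ± 0.189 times Fcgr2b under isotype (SD over 6 tumors, range 1.61 to 2.18) and 1.62 ± 0.270 times under B20-4.1.1 (7 tumors, range 1.28 to 1.89). The ranges overlapped. The ratio of Fcgr4 to Fcgr3 was 0.0813 ± 0.0159 and 0.131 ± 0.0432, with 6 B20-4.1.1 tumors between 0.131 and 0.174 and B7 at 0.0383. The ratio of Fcer1g to the 3 activating receptors was 2.28, 2.28 and 2.43 in isotype pool 1, 4.63, 4.68 and 4.54 in isotype pool 2, and 2.43 to 4.41 in B20-4.1.1 tumors. These ratios were not tested.

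In epithelial-like cells, where 1714 of 12241 genes (14.0%) were called, 3 members passed the filter on low counts and 0 were called by edgeR or by DESeq2 (17.1% of genes called). Fcgrt was at 0.0593 to 0.105 UMIs per 10000 in isotype (median 0.0896) and 0.0391 to 0.184 in B20-4.1.1 tumors (median 0.1003), a log2 fold change of 0.40 (SE 0.214, adjusted p = 0.212). It was called without B20-4.1.1 pool 3 (0.65, adjusted p = 0.0233, 8.80% of genes called). Fcer1g (0.05, SE 0.270) and Fcgr3 (0.05, SE 0.385) were near background in these cells. Fcgrt was at a like level to Fcer1g there (0.0906 and 0.0873 UMIs per 10000, pooled over tumors) and was not tested against background. The treatment effect in macrophage-like minus that in epithelial-like cells was 0.01 for Fcgrt (95% interval -0.68 to 0.71), and 0 of 6 members passed the test of this difference, while 1 of 9507 genes did (0.0105%). Epithelial-like cells held only 34 Fcgr1, 97 Fcgr2b and 8 Fcgr4 UMIs. With Fcgr3 and Fcer1g also near background there, the test could decide little for these members. Without isotype pool 2 the difference was called for Fcer1g (1.20, adjusted p = 0.0119, 1.51% of genes called).

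In T-like cells 1 member, Fcer1g, passed the filter and was not called, where 0 of 5041 genes (0.00%) were called by edgeR, 837 had an unadjusted p under 0.05 and DESeq2 called 58 (1.15%). Its level was 6.34 to 22.1 UMIs per 10000 in isotype (median 14.2) and 0.488 to 22.7 in B20-4.1.1 tumors (median 10.7). The lowest values, 0.613, 0.569 and 0.488, were those of B3, B4 and B6, the tumors in which over 50% of cells were T-like. The log2 fold change was -0.47 (SE 0.670, adjusted p = 0.795) with all tumors and 0.10 (SE 0.281, adjusted p = 1.00) without these 3.

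Fcer1g in T-like cells went with markers of NK cells. T-like cells with 0 NK markers had 0.244 UMIs per 10000 (1138 cells), those with 1 had 8.64 (851 cells) and those with 2 had 14.6 (395 cells), and after thinning 4.75%, 34.9% and 68.1% of them had a Fcer1g UMI. These values are pooled over tumors that contributed unequally, since B3, B4 and B6 held most of the 2384 T-like cells. In T-like cells with no NK marker the level was 0.213, 0.104 and 0.143 in B3, B4 and B6, and it ranged from 0 to 3.63 in the other 12 tumors, so the pooled steps also carry differences between tumors. In B3, B4 and B6 between 62.5% and 68.4% of T-like cells had no NK marker, against 2.44% to 31.4% in the other tumors. Deeper cells show more markers, and this was not corrected for. In the 4 tumors with 20 or more NK-like cells, Fcer1g was 0.33 higher in NK-like than in T-like cells on the log2 scale (SE 0.114, edgeR adjusted p = 0.140), where 3.70% of 2702 genes were called. Without B20-4.1.1 pool 1 it was called (0.44, adjusted p = 0.00144, 3.77% of genes called).

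**Figure D5:**
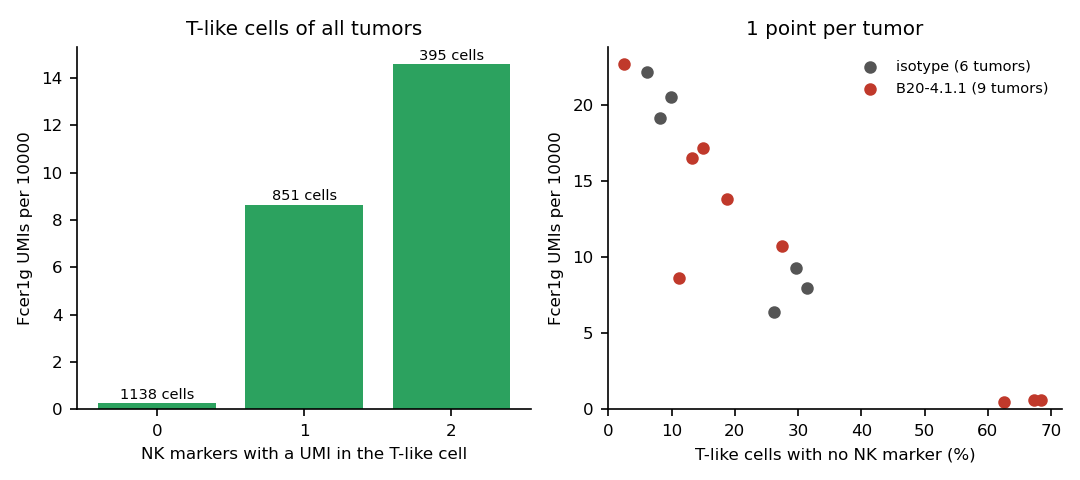
Left, Fcer1g UMIs per 10000 in T-like cells of all tumors by the number of NK markers with a UMI. Right, the level per tumor (y axis) against the percent of T-like cells with no NK marker (x axis). The 3 tumors at 62.5% to 68.4% are those with levels of 0.488 to 0.613.

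The genes around the receptors were followed in macrophage-like cells through lists of partners, and 0 genes of these lists were called in either direction (edgeR). Of the 13 ITAM and ITIM signalling genes, 7 had a log2 fold change above 0 and the median was 0.01. Among those with the most UMIs were the kinase Lyn (0.09, SE 0.133) and the phosphatase Inpp5d (-0.17, SE 0.136). Among adaptors, Tyrobp, which serves other myeloid receptors as Fcer1g does, had 26.8 UMIs per 10000 and a log2 fold change of 0.09 (SE 0.133), Hcst was at 0.60 (SE 0.156, adjusted p = 0.168), and Cd247 had too few UMIs to test. All 4 tested receptors that pair with Fcer1g were above 0 (median 0.50), with Clec4n at 0.57 (SE 0.158, adjusted p = 0.189), Clec4d at 0.82 (SE 0.353) and Pira2 at 0.14 (SE 0.365).

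Of 6 NADPH oxidase genes, which make the oxidative burst that follows receptor engagement, 4 were above 0 (median 0.16): Cyba at 0.35 (SE 0.177), Cybb at -0.16 (SE 0.125) and Ncf4 at 0.28 (SE 0.138). Of 6 inhibitory receptors of phagocytosis 4 were above 0 (median 0.05), with Sirpa, the receptor for Cd47, at 0.07 (SE 0.153), Cd300a at 0.49 (SE 0.169, adjusted p = 0.289) and Clec4a2 at 0.12 (SE 0.151). Of 8 interferon-responsive genes tested 5 were above 0 (median 0.47), and among those with the most UMIs were Cxcl10 (-0.78, SE 0.508) and Isg15 (0.80, SE 0.480). Beta 2 microglobulin (B2m), the light chain that Fcgrt needs, was at 21.5 UMIs per 10000 and 0.14 (SE 0.147). Over all genes tested 51.0% were above 0.

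Other Fc and immunoglobulin receptors were nearly absent from macrophage-like cells: of 11, only Fcrls passed the filter (1.74 UMIs per 10000, log2 fold change -0.62, SE 0.308, adjusted p = 0.487), and the next were Trim21 (0.120) and Pigr (0.0321). Of the immunoglobulin chains themselves, transcripts of Ighg1, Ighg2b, Ighg2c and Ighg3 were at 0 UMIs in macrophage-like cells, Igkc was at 0.0431 and Ighd at 0.0281 per 10000. Ighm, the chain of IgM, was at 0.900 (897 UMIs; log2 fold change -0.24, SE 0.156), against 21.2 in B-like and 0.0112 in epithelial-like cells.

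The genes most like each member were found by Pearson's r of log2(CPM + 10) over 64 sums of 9 classes and up to 15 tumors, given as a description because the sums share libraries and classes. They were Msr1, C3ar1 and Slc7a8 for Fcgr1 (r = 0.971 to 0.978), Pld4, Cybb and Capza2 for Fcgr2b (0.962 to 0.982), Itgam, C5ar1 and Igsf6 for Fcgr3 (0.966 to 0.969), and Cd33, Npl and Cd300lf for Fcgr4 (0.934 to 0.963). Fcer1g was most like Tyrobp (0.979), then Myo1f and Tln1, and Fcgrt most like Pmp22, Ahnak2 and Cd302 (0.884 to 0.895). Among the members, Fcgr1 and Fcgr2b were the closest pair (0.938), and Fcer1g and Fcgrt the least alike (0.0396).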

How the data were processed

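Single-cell suspensions of 15 MMTV-PyMT tumors, labelled with multiplexing oligonucleotides, had been run as 5 droplet pools and aligned and counted by the authors with Cell Ranger (6.1.2 in the matrix header; mm10, bcl2fastq and Seurat 4.3.0 are named in the submitters' processing notes). The deposited values are raw UMI counts per gene and cell, without normalization, 1 matrix per tumor. Of the multiplexing UMIs in each tumor's cells, 84.3% to 97.6% came from its own oligonucleotides.

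From these counts, those cells were taken whose UMIs numbered between 2500 and 27500, as in the study, and whose mitochondrial share did not pass 20%. The UMI minimum left out 7126 isotype and 2981 B20-4.1.1 cells. A cell was classed by the number of distinct markers with a UMI out of fixed lists: at least 3 for most classes, 5 for epithelial-like, 4 for neutrophil-like, 2 for monocyte-like with at least as many monocyte as macrophage markers, and 3 pan-myeloid markers besides for both. T-like cells with NK markers had 3 NK markers and 2 of Cd3e, Cd3d, Cd3g and Trac. These thresholds were set after marker counts had been seen. No doublet caller was run: cells meeting the gates of more than 1 class (633) and of none (971) were left out of the classes. The study's hypoxia classes were not used here.

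Counts were summed per tumor and class (at least 20 cells; at least 4 tumors per treatment). edgeR 4.0.16 (TMM, filterByExpr, quasi-likelihood F test, two-sided, R 4.3.3) was run on all genes with Benjamini-Hochberg adjustment at 0.05. The tumor (1 mouse) was the replicate. Other settings used DESeq2 1.42.0, limma 3.58.1 and scanpy 1.11.5 (23 Leiden clusters, 3 unnamed). Scripts were tested on simulated data. The members and lists were chosen with earlier results of these data known. Named genes were all members and, of each list, those called or else the 3 with most UMIs in macrophage-like cells. Some of the genes so chosen are not reported here.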

Additional observations from a re-analysis of the deposited data

Results flagged for a closer look

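Of 26 groups of 4 to 10 tumors whose member levels were screened by the gap of the highest or lowest tumor to its nearest neighbor (Dixon's 95% limits, which chance passes in about 5% of groups), 2 were flagged, both in epithelial-like cells of B20-4.1.1 tumors. Fcer1g was at 0.183 UMIs per 10000 in B9 (145 UMIs in 928 cells), against 0.0232 to 0.0926 in the other 8 tumors of the group. Fcgr3 was at 0.0349 in B4, from 3 UMIs in 76 cells, against 0.00574 to 0.0152.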

How the results depend on the processing

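No paired analysis was possible because replicate numbers follow only the order of the samples and each pool holds a single treatment. Of the members' log2 differences, 242 of 283 under the alternatives kept their direction and side of the threshold, 12 came past it and 29 changed sign. The 283 include the large differences from epithelial-like cells, where all 6 members were called under all 9 alternatives. Members not tested in the main fit or under an alternative are not counted. The cause of each change was not tested.

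In macrophage-like cells the treatment test called 6 genes. It called 31 with DESeq2, 62 without the filter on low counts, 0 with voom and pool as a random block, 0 with sums per pool, 2 with thinned cells, 37 with Leiden clusters, 11 from 1000 UMIs with no maximum, 3 with monocyte-like cells added, 2 from 10 cells per tumor and 0 from 30. With a pool left out it called 0 to 641. Members called were 1 with DESeq2 (0.452% of genes called), 1 with Leiden clusters (0.612%) and 0 to 3 with a pool left out. The 3 were called without isotype pool 2 (8.52% of genes called), and 1 was called without B20-4.1.1 pool 3 (0.191%). Fcgrt ranged from -0.19 (without isotype pool 1) to 0.75. In T-like cells 0 genes became 58 with DESeq2, 161 with voom and pool as a random block, 0 with sums per pool, 4 with Leiden clusters and 0 to 372 with a pool left out. With a pool left out Fcer1g there ranged from -1.08 to 0.42 (without isotype pool 2). It was -1.41 with voom and pool as a random block, and turned to 0.10 without B3, B4 and B6, an alternative added after the data had been seen. Leaving out TMM moved the median of all genes in T-like cells from 0.01 to -0.15.

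In epithelial-like cells 1714 genes became 32 with voom, 0 with sums per pool, 885 with thinned cells and 391 to 5454 with a pool left out (members 0 to 1). Fcgr3 turned to -0.072 without TMM, ranged from -0.53 (without isotype pool 2) to 1.04 with a pool left out, was -0.03 without B20-4.1.1 pool 2 and -0.32 from 1000 UMIs. Fcer1g turned to -0.068 without TMM, ranged from -0.25 (without isotype pool 2) to 0.46, and was -0.23 without B20-4.1.1 pool 3, -0.16 with thinned cells and -0.14 from 1000 UMIs.

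Between macrophage-like and monocyte-like cells 536 genes and 1 member became 959 and 2 without the filter, 307 and 0 with thinned cells, 1347 and 4 with Leiden clusters, and 285 to 626 and 1 to 2 with a pool left out. With thinned cells only 4 members were tested, and Fcgrt, the member called before, did not pass the filter on low counts. With Leiden clusters Fcgr2b turned to 0.59, Fcgr3 to 0.43 and Fcgrt to -1.28. Fcgr3 turned to 0.018 without the filter and 0.18 without B20-4.1.1 pool 3, and Fcer1g to -0.010 without TMM and -0.058 with thinned cells, and ranged from -0.0038 to 0.095 with a pool left out. Against epithelial-like cells 7403 genes became 4259 with thinned cells. Between NK-like and T-like cells 100 genes became 216 without the filter and 46 with thinned cells, and 0 to 1 members were called with a pool left out.

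The difference of treatment effects between macrophage-like and epithelial-like cells called 1 gene, and 1 to 145 genes and 0 to 1 members with a pool left out. The lowest values, without isotype pool 1, and the highest with a pool left out were -0.41 and 1.57 for Fcgr2b, -0.80 and 0.75 for Fcgr3, -0.46 and 1.20 for Fcer1g, -0.88 and 1.90 for Fcgr1, -0.64 and 0.56 for Fcgrt and -1.55 and 0.68 for Fcgr4. Fcgr4 was 0.43 without B20-4.1.1 pool 3, and Fcgrt -0.0041 without TMM and -0.22 without B20-4.1.1 pool 3.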
